A study of Homo sapiens with 4 samples.

Results

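The death receptor pathway was followed through 10 genes on whole-genome arrays of leukemia cells with a GATA1 knockdown. The members were the ligand TNFSF10 (TRAIL), the receptors FAS, TNFRSF10A, TNFRSF10B and TNFRSF1A, the adaptors FADD and TRADD, the initiator caspases CASP8 and CASP10, and the inhibitor CFLAR (c-FLIP). Every non-control probe whose gene name in the scanner files was 1 of these 10 was taken, and each probe was kept apart. This gave 18 of the 41000 non-control probes, printed on 54 of the 43376 non-control spots of an array.

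Death receptors are cell surface receptors of the tumor necrosis factor receptor family that carry a death domain in their cytoplasmic tail. Binding of a ligand recruits the adaptor FADD, directly for FAS and the TRAIL receptors and by way of TRADD for TNFRSF1A, and FADD in turn gathers caspase-8 and caspase-10, which become active in the complex and cleave the executioner caspases. CFLAR resembles caspase-8 and competes for its place in the complex. In leukemia the route is known for its part in the killing of malignant cells by immune cells and by drugs.

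The cells were Meg-01, an established human megakaryoblastic leukemia line, and the study asked which genes depend on GATA1, the transcription factor of megakaryocytes and erythroid cells. RNA of the clones GATA1 5-13 and GATA1 4-14, each grown from a single soft agar colony after lentiviral delivery of a GATA1 shRNA and puromycin selection, was set against RNA of GATA1 Neg, an uncloned pool of Meg-01 cells infected with a control shRNA virus. No drug is named for any group, and all groups shared infection with a lentivirus that expresses an shRNA. Each of the 4 two-colour Agilent arrays held 1 clone and GATA1 Neg, and each clone was hybridized a second time with the dyes swapped. The array numbered 1 had the knockdown RNA in red (Alexa647) and the array numbered 2 had it in green (Alexa555). The extraction text of the labels names CMK, another megakaryoblastic line, while the other labels name Meg-01.

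Values are log2 ratios of knockdown over GATA1 Neg after background correction and loess normalization, so that -1 is 50% of the control level. The arrays of a clone were averaged, and limma tested the mean of the 2 clones against 0 over 40974 probes. With n = 2 clones, limma drew each probe's variance between clones toward a prior from all probes (variance 0.0085, 2.06 degrees of freedom). The p-values and intervals thus rest on the spread between clones over all probes as well as on the probe's own SD. They leave out any spread of GATA1 Neg, and a property of a single clone cannot be told apart from the knockdown in it. Between 61.6% and 66.4% of the spots lay well above background in either RNA of an array, and 0 spots were saturated. GATA1 itself (probe A_24_P374244, chrX:48535797-48536559 of hg18) stood at -0.21 and -0.34 for GATA1 5-13 and at -0.43 and -0.58 for GATA1 4-14, with a mean of -0.39 ± 0.16 (SD, n = 2 clones). Limma's p for it, adjusted by Benjamini-Hochberg as all adjusted p-values here are, was 0.605. Of the marker genes looked up in GATA1 Neg, 7 of 11 megakaryocyte genes, among them ITGA2B, ITGB3 and GP9, and 6 of 6 erythroid genes were well above background on all 4 arrays. The same held for 2 of 4 monocyte genes (ITGAM and LYZ), 1 of 4 T cell genes (CD3E) and 1 of 3 B cell genes (CD79A).

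GATA1 binds short sites built around the letters GATA. The promoter windows of the members were therefore searched on both strands for 4 words, with overlapping matches allowed. The windows come from RefSeq (GRCh38.p14) and run from 250 bases before to 50 bases after a transcript start. There were 13 of them for 6 members (TNFSF10, FAS, TNFRSF1A, FADD, CASP8 and CFLAR), and 5 of these 13 held a match, against 25% of all 35116 windows of the table. The word AGATAA stood in 10.3% of all windows. The word AGATAG stood in 6.63% and the word TGATAA in 7.53%, and 5.8% held the word TGATAG. All matches in the members were on the strand of the transcript. The stretch before the start of TNFSF10 is shown whole because TNFSF10 had the log2 ratio farthest from 0 of the members. It covers chr3:172523431-172523680 on the minus strand, with its single match, 230 bases before the start, in capitals.
TNFSF10: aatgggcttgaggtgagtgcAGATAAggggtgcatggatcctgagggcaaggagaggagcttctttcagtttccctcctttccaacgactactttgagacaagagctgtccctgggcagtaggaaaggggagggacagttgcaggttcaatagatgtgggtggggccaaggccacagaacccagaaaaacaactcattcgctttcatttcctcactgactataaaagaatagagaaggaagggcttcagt

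The other matches before a start are shown with 12 bases on each side, in the order of their genes along the pathway, so that the letters around each match can be compared. That of FADD lay 19 bases before its start (chr11:70203265-70203294, plus strand). CASP8 had matches 231 and 132 bases before 1 of its 3 starts (chr2:201233220-201233249 and chr2:201233319-201233348, plus strand), and CFLAR had them 203 and 148 bases before 1 of its 4 starts (chr2:201128750-201128779 and chr2:201128805-201128834, plus strand). CFLAR also held TGATAA 32 bases after another of its starts. The 3 windows of FAS and the window of TNFRSF1A held none of the 4 words. A match is a description of the letters, and binding was not looked at here.
FADD: ttagttttcgcgAGATAAcggtcgaaaacg
CASP8, farther match: ctttgtgtgcatAGATAAggtatatttttt
CASP8, nearer match: gaaacaagtgtgTGATAAacggtggagaat
CFLAR, farther match: tcttgtaggaacAGATAAagaacacaagag
CFLAR, nearer match: gaaacttagagtAGATAGgttagcaactta

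All 18 member probes were well above background in both RNAs on all 4 arrays, so every ratio rests on 2 measured signals. After adjustment over all probes, limma called 0 of the 18 (0% of the 40974 probes tested). At an unadjusted p of at most 0.05 it called 3 probes lower in the knockdown (4.04% of all probes) and 2 higher (3.38% of all probes), and at 0.005 it called 0 (0.901% of all probes). The 3 lower were TNFSF10, CASP10 A_23_P209408 and CFLAR A_24_P120115, and the 2 higher were both probes of TNFRSF1A. The split was 1 lower and 0 higher with Feature Extraction's own log ratios, and 3 lower and 1 higher with median centring in place of loess. The shares of all probes called under these alternatives were not counted. An error-weighted mean of the 4 arrays, which takes its error from the scanner program's error model and not from the clones, called TNFSF10 and CFLAR A_24_P120115 lower (4.31% of all probes) and TNFRSF1A A_23_P139722 higher (4.02% of all probes) after adjustment. The log2 ratio was below 0 on all 4 arrays for 5 probes (13.4% of all probes) and above 0 on all 4 for 5 others (12.8% of all probes). With median centring in place of loess only TNFSF10 and CFLAR A_24_P120115 were below 0 on all 4 arrays and only TNFRSF1A A_23_P139722 above 0 on all 4, while the sign of the mean of the clones stayed as it was for all 18 probes. The median log2 ratio of the 18 probes was -0.036, beside -0.00022 over all probes, and it was 0.08 in GATA1 5-13 and -0.086 in GATA1 4-14.

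**Figure D1:**
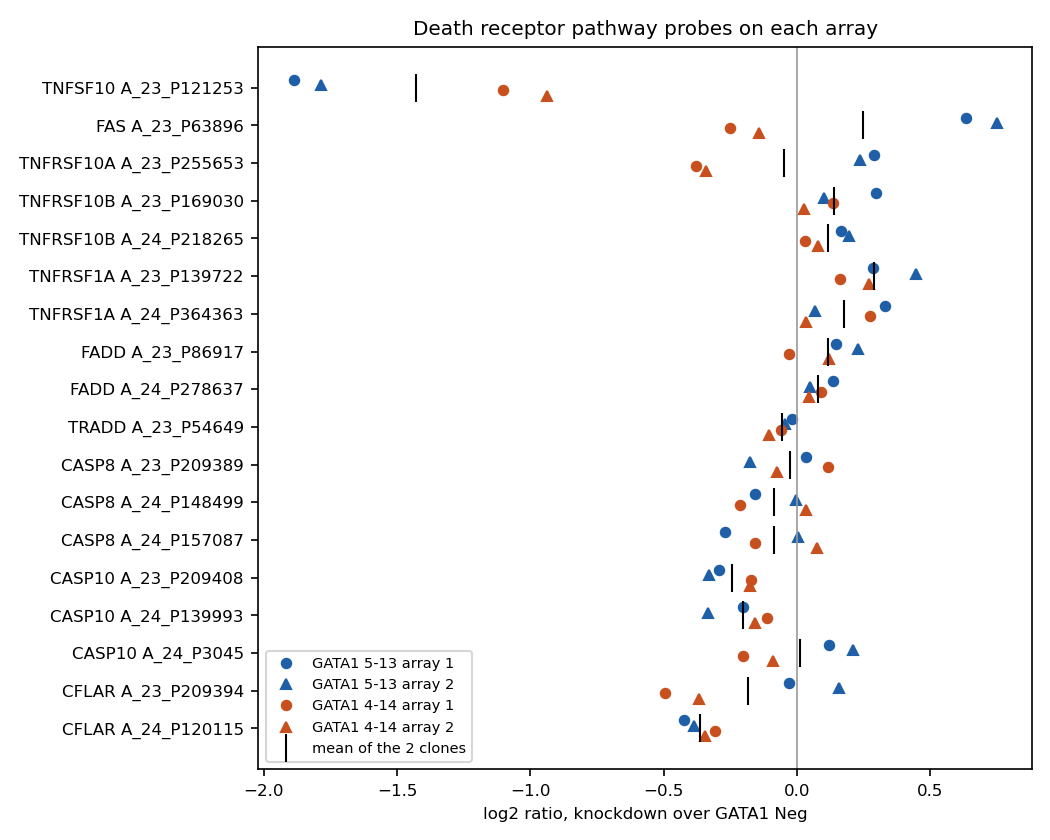
Log2 ratio of knockdown over GATA1 Neg (x axis) of each member probe (y axis) on the 4 arrays, with GATA1 5-13 in blue, GATA1 4-14 in orange, circles for the knockdown RNA in red, triangles for it in green, and a bar at the mean of the 2 clones. TNFSF10 lies apart from the rest, between -1.89 and -0.94, and FAS and TNFRSF10A lie above 0 in GATA1 5-13 and below 0 in GATA1 4-14.

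TNFSF10 encodes TRAIL, the ligand of TNFRSF10A and TNFRSF10B, and its transcript was the member with the largest difference between knockdown and control. Its probe A_23_P121253 (chr3:173706560-173706619 of hg18) gave -1.89 and -1.79 in GATA1 5-13 and -1.10 and -0.94 in GATA1 4-14. The level was 28.0% of that in GATA1 Neg in GATA1 5-13, 3.57-fold lower, and 49.3% in GATA1 4-14, 2.03-fold lower. All 4 arrays were far below 0, and both arrays of GATA1 5-13 lay below both arrays of GATA1 4-14.

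The normalized log2 signal of TNFSF10 in GATA1 Neg was 10.34, 10.31, 10.37 and 10.26 on the 4 arrays, in the order GATA1 5-13 array 1 and 2, then GATA1 4-14 array 1 and 2. The knockdown RNA on the same arrays had signals of 8.45, 8.52, 9.27 and 9.33. The control, the same RNA pool on each array, hardly moved. The lowest knockdown signal was above 6.79, the lowest signal called well above background in the knockdown RNA of that array. The probe was printed on 10 spots of each array, and the SD between these spots was 0.040 to 0.056. The mean log2 ratio was -1.43 ± 0.58 (SD, n = 2 clones; 95% interval -2.18 to -0.68), with an unadjusted p of 0.0089 and an adjusted p of 0.565 from limma. Over the other processing settings the adjusted p ran from 2.82e-30 for the error-weighted mean to 0.621 for the series-wide values. It was lower still when the errors of repeated spots were divided by the root of their number, a setting chosen after seeing the data. Limma gave 0.0201 when the 4 arrays were taken as 4 values, which counts the 2 arrays of a clone as separate replicates. The gap between the clones exceeded that between the arrays of either clone. In RNA from whole cultures, fewer cells with a transcript and less of it per cell cannot be told apart.

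**Figure D2:**
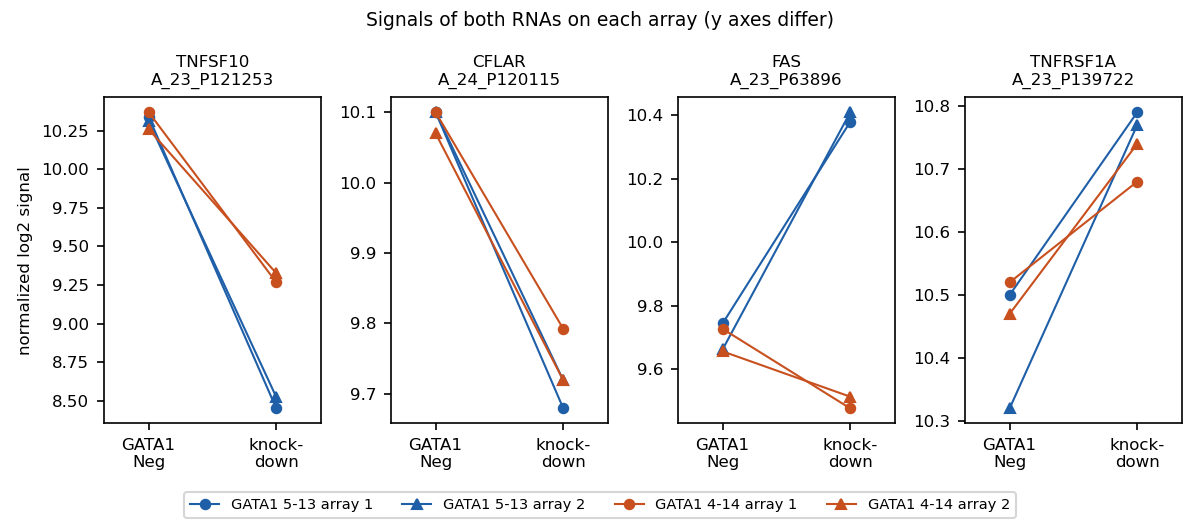
Normalized log2 signal (y axis, with its own range in each panel) of GATA1 Neg and of the knockdown RNA on the same array, joined by a line, for a probe each of TNFSF10, CFLAR, FAS and TNFRSF1A. For TNFSF10 and CFLAR A_24_P120115 all 4 lines go down, for TNFRSF1A all 4 go up, and for FAS the lines of GATA1 5-13 (blue) go up to 10.38 and 10.41 while those of GATA1 4-14 (orange) go down to 9.48 and 9.51.

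FAS, the receptor for Fas ligand, was measured by probe A_23_P63896 (chr10:90764525-90764584), again on 10 spots. Its log2 ratio was 0.64 and 0.75 in GATA1 5-13, where the transcript stood at 162% of the control, and -0.25 and -0.14 in GATA1 4-14, where it stood at 87.2%. The arrays of the clones lay on opposite sides of 0. The spots of an array had an SD of 0.031 to 0.0577, which is a technical spread within an array and not one between cultures, and the clones lay 0.89 apart. The mean of 0.25 ± 0.63 (SD, n = 2 clones) had an adjusted p of 0.842 from limma, and with 1 replicate per clone the difference between them has no test.

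TNFRSF10A, the receptor known as DR4, stood the same way. Probe A_23_P255653 (chr8:23105198-23105257) gave 0.29 and 0.24 in GATA1 5-13 and -0.38 and -0.34 in GATA1 4-14, or 120% and 78.0% of the control. The 2 arrays of each clone lay close together and the clones lay 0.62 apart. Its mean of -0.05 ± 0.44 (SD, n = 2 clones) had an adjusted p of 0.967 from limma.

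TNFRSF10B, the receptor known as DR5, had a log2 ratio above 0 on all 4 arrays by both of its probes after loess, and below 0 on the arrays with the green label on the knockdown with median centring. Probe A_23_P169030 (chr8:22936153-22936212) gave 0.30 and 0.10 in GATA1 5-13 and 0.14 and 0.03 in GATA1 4-14, with a mean of 0.14 ± 0.08. Probe A_24_P218265 (chr8:22933721-22933780) gave 0.17, 0.20, 0.03 and 0.08 in the same order, with a mean of 0.12 ± 0.09. These ratios were small, and limma gave adjusted p-values of 0.706 and 0.731 (n = 2 clones). The members that bind TRAIL thus stood at 78.0% to 120% of the control, while the ligand itself stood at 28.0% and 49.3%.

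TNFRSF1A, the main death receptor for tumor necrosis factor, was higher in both clones by both probes. Probe A_23_P139722 (chr12:6308325-6308384, 10 spots with an SD of 0.0257 to 0.0439) gave 0.29 and 0.45 in GATA1 5-13 and 0.16 and 0.27 in GATA1 4-14. The knockdown signals were 10.68 to 10.79 and the control signals 10.32 to 10.52. This was 129% and 116% of the control, with a mean log2 ratio of 0.29 ± 0.11 (SD, n = 2 clones; 95% interval 0.08 to 0.51), an unadjusted p of 0.0226 and an adjusted p of 0.622 from limma. The adjusted p over the other processing settings lay between 0.0337 for the error-weighted mean and 0.715 without array 1 of GATA1 5-13, and it was 1.81e-18 with the errors of repeated spots divided in that way.

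Probe A_24_P364363 of TNFRSF1A (chr12:6308995-6309209) gave 0.33 and 0.07 in GATA1 5-13 and 0.28 and 0.03 in GATA1 4-14. Both arrays with the knockdown RNA in red had the higher ratio and both with it in green had a ratio near 0, so its spread followed the dye more than the clone. The mean was 0.18 ± 0.03 (SD, n = 2 clones), with an unadjusted p of 0.0468 and an adjusted p of 0.670 from limma.

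**Figure D3:**
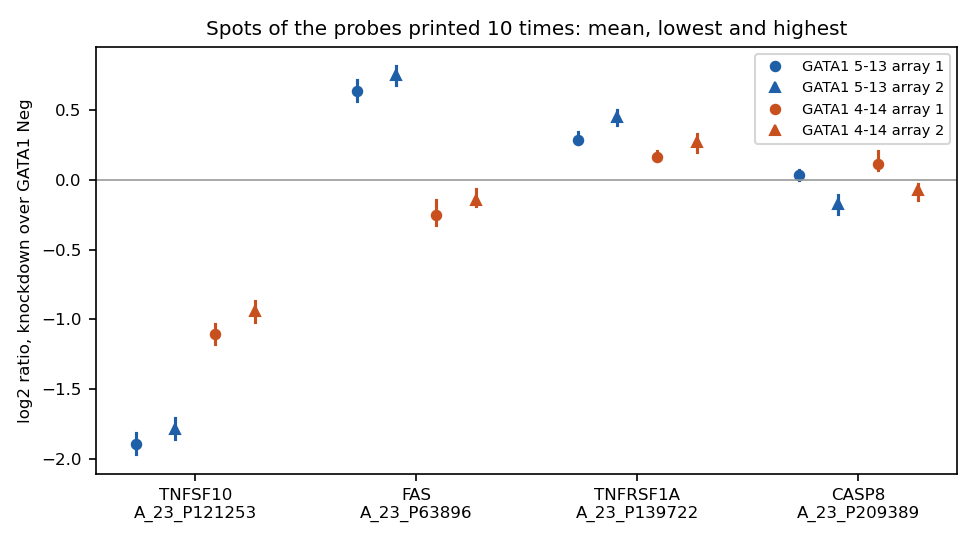
Log2 ratio of knockdown over GATA1 Neg (y axis) of the 4 member probes printed on 10 spots, by array, with the mean of the spots as a symbol and the lowest and highest spot as the ends of a line. The spots of an array lie close together for TNFSF10, FAS and TNFRSF1A, and the distance between clones is larger for TNFSF10 and FAS, whereas CASP8 lies above 0 where the knockdown was labelled red (circles) and below 0 where it was labelled green (triangles).

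The adaptors stayed near the control level. FADD, which links receptors to the initiator caspases, gave 0.15, 0.23, -0.03 and 0.12 by probe A_23_P86917 (chr11:69730953-69731012) and 0.14, 0.05, 0.09 and 0.04 by probe A_24_P278637 (chr11:69729948-69730007), in the order GATA1 5-13 array 1 and 2, then GATA1 4-14 array 1 and 2. TRADD, the adaptor of TNFRSF1A, gave -0.02, -0.04, -0.06 and -0.11 by probe A_23_P54649 (chr16:65745693-65745752). Their means were 0.12 ± 0.10, 0.08 ± 0.02 and -0.06 ± 0.04 (SD, n = 2 clones), and the outermost bounds of their 95% intervals were -0.23 and 0.33. The adjusted p-values from limma were 0.736, 0.761 and 0.830.

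CASP8, CASP10 and CFLAR are neighbours on chromosome 2, and no probe of another gene lay between their outermost probes. The first CFLAR probe and the last CASP8 probe were 151.1 kb apart. After loess, 3 of these 8 probes had a log2 ratio below 0 on all 4 arrays (13.4% of all probes). A ratio above 0 on all 4 was seen for 0 of them (12.8% of all probes). The 3 were CFLAR A_24_P120115 and the CASP10 probes for variant D, and these CASP10 probes were designed on the same transcript. With median centring only CFLAR A_24_P120115 was below 0 on all 4.

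CFLAR was measured by a pair of probes that differed. Probe A_24_P120115 (chr2:201733443-201733502) gave -0.42 and -0.38 in GATA1 5-13 and -0.31 and -0.35 in GATA1 4-14, which was 75.6% and 79.8% of the control. Its signals in GATA1 Neg were 10.10, 10.10, 10.10 and 10.07, and those in the knockdown RNA were 9.68, 9.72, 9.79 and 9.72. The clones differed by -0.08 (GATA1 5-13 minus GATA1 4-14).

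Its mean was -0.36 ± 0.05 (SD, n = 2 clones; 95% interval -0.55 to -0.18), with an unadjusted p of 0.00757 and an adjusted p of 0.563 from limma. The adjusted p was 0.00396 for the error-weighted mean and up to 0.603 without array 1 of GATA1 5-13. Limma gave 0.0164 with the 4 arrays as 4 values, which counts the 2 arrays of a clone as separate replicates. Probe A_23_P209394 (chr2:201708976-201709035), designed on an mRNA named FLAME-1 and lying 24.47 kb before the other probe, gave -0.03 and 0.16 in GATA1 5-13 and -0.50 and -0.37 in GATA1 4-14. The clones lay apart by 0.50 here, and the mean of -0.18 ± 0.35 (SD, n = 2 clones) had an adjusted p of 0.798 from limma. In GATA1 4-14 both CFLAR probes were low, at 79.8% and 74.1% of the control, and in GATA1 5-13 only A_24_P120115 was, at 75.6% against 105%.

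The probes of CASP10 differed as well. The probes A_23_P209408 (chr2:201792741-201792800) and A_24_P139993 (chr2:201792604-201792663) were both designed on transcript variant D. The first gave -0.29 and -0.33 in GATA1 5-13 and -0.17 and -0.18 in GATA1 4-14, and the second -0.20 and -0.33, then -0.11 and -0.16. All these values were below 0, and those of GATA1 5-13 were the lower ones by either probe. With median centring the arrays with the red label on the knockdown turned above 0, to between 0.03 and 0.10 over both probes.

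Their means were -0.24 ± 0.10 and -0.20 ± 0.09 (SD, n = 2 clones), with unadjusted p-values of 0.0343 and 0.0528 and adjusted p-values of 0.651 and 0.677 from limma. Probe A_24_P3045 (chr2:201765956-201766015), designed on transcript variant B, gave 0.12 and 0.21 in GATA1 5-13 but -0.20 and -0.09 in GATA1 4-14. Its clones lay on opposite sides of 0, with a mean of 0.01 ± 0.22 (SD, n = 2 clones) and an adjusted p of 0.987 from limma. Which exons these probes lie in was not determined here, so a difference between transcripts and a difference between probes cannot be told apart.

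CASP8, the initiator caspase of the complex, was near the control level by all 3 probes. Probe A_23_P209389 (chr2:201859729-201859788, 10 spots) gave 0.03 and -0.18 in GATA1 5-13 and 0.12 and -0.07 in GATA1 4-14, and its sign followed the dye in both clones. Probe A_24_P157087 (chr2:201860083-201860142), designed on the same transcript variant B, followed the dye the other way, with -0.27 and 0.01, then -0.16 and 0.07. Probe A_24_P148499 (chr2:201844501-201844560), designed on variant E, had -0.15 and -0.21 with the knockdown RNA in red, and -0.0019 and 0.03 with it in green.

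Averaged over the dyes, the CASP8 means were -0.02 ± 0.07, -0.09 ± 0.06 and -0.08 ± 0.01 (SD, n = 2 clones), with adjusted p-values of 0.940, 0.766 and 0.752 from limma. The 95% intervals lay between -0.27 and 0.16. The last SD is between clone means whose own arrays differed by more than it.

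The nearest probes above background outside the 3 genes were those of NDUFB3, at 0.25 for GATA1 5-13 and 0.03 for GATA1 4-14, and of ALS2CR12, with -0.18 and -0.15. They bound a stretch in which CFLAR A_24_P120115 and the CASP10 variant D probes lay below both neighbours in GATA1 5-13. In GATA1 4-14 CASP10 A_24_P139993 lay at -0.14, above ALS2CR12 at -0.15. Low values were not confined to this stretch. Beyond ALS2CR12, the TRAK2 probes lay at 0.03 and 0.12 in GATA1 5-13 and at 0.09 and 0.13 in GATA1 4-14. The ALS2CR2 probes above background came next, at -0.23 and -0.25 in GATA1 5-13 and at -0.24 and -0.24 in GATA1 4-14. No test was made of position.

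**Figure D4:**
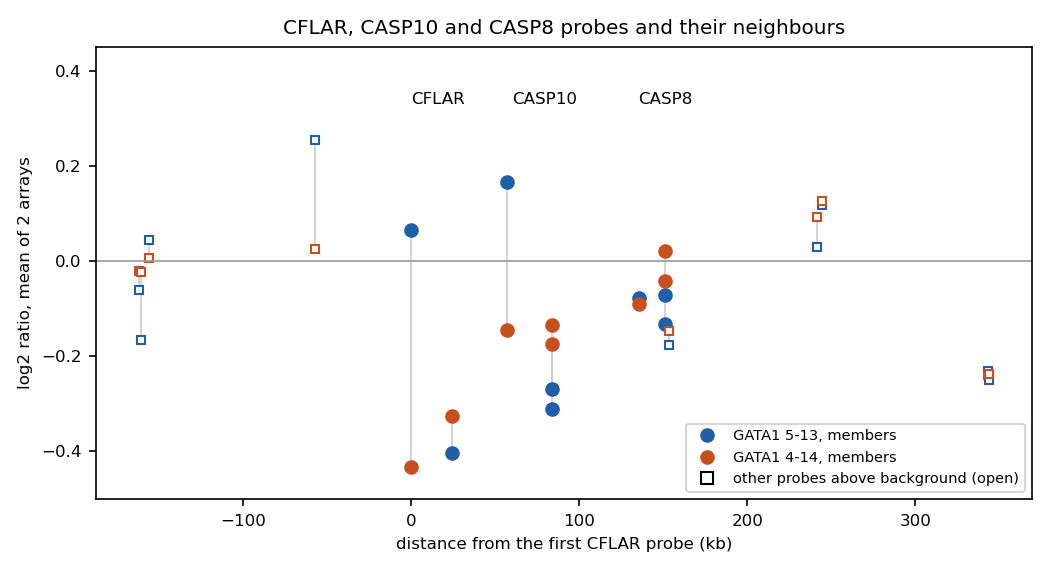
Log2 ratio of each clone (y axis, mean of its 2 arrays) against the distance from the first CFLAR probe in kb (x axis), for the 8 probes of CFLAR, CASP10 and CASP8 (filled) and the other probes within 200 kb on each side that were above background on all 4 arrays (open squares). GATA1 5-13 is blue and GATA1 4-14 orange. The CFLAR probe at 24.47 kb and the CASP10 probes at 83.63 and 83.76 kb lie below 0 in both clones, and the first CFLAR probe and the first CASP10 probe lie above 0 in GATA1 5-13 and below 0 in GATA1 4-14.

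Around the members, 44 other genes of the pathway were looked up, and all had a probe on the array, 60 probes in all. The brighter RNA was well above background on all 4 arrays for 44 of these probes. Limma called 0 of the 60 after adjustment (0% of all probes) and, at an unadjusted p of at most 0.05, 3 lower (4.04% of all probes) and 1 higher (3.38% of all probes). The ratio was below 0 on all 4 arrays for 8 (13.4% of all probes) and above 0 on all 4 for 3 (12.8% of all probes), and the median log2 ratio was -0.014. By the error-weighted mean 4 were lower (4.31% of all probes) and 2 higher (4.02% of all probes) after adjustment.

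Among the ligands, 7 of 8 probes were not well above background in any RNA of any array. These were the probes of FASLG, the ligand of FAS, of TNF and LTA, ligands of TNFRSF1A, and of TNFSF15, the ligand of TNFRSF25. TNFSF12 (TWEAK) was the ligand outside the members that was measured, at -0.58 in GATA1 5-13 and -0.13 in GATA1 4-14. The 2 probes of TNFRSF21 (DR6) divided between the clones as FAS and TNFRSF10A did, with 0.26 and 0.30 in GATA1 5-13 and -0.41 and -0.32 in GATA1 4-14. Those of MLKL, the pore-forming protein of necroptosis, did so too, with 0.31 and 0.31 against -0.20 and -0.21. The opposite division was seen for FAIM, an inhibitor of FAS-driven apoptosis, with -0.20 in GATA1 5-13 and 0.43 in GATA1 4-14, and for DFFA, the inhibitor of the caspase-activated DNase, with -0.46 and 0.06 by probe A_23_P12189 and -0.28 and 0.13 by probe A_24_P222758. TNFSF12, TNFRSF21, MLKL, FAIM and DFFA were chosen here after their values were seen.

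Of the probes with 1 sign on all 4 arrays and a measured brighter RNA, 4 of the 6 with the mean log2 ratio farthest from 0 are described here, those of TNFRSF25, BIRC3, TNFAIP3 and DEDD2. TNFRSF25 (DR3), a receptor with a death domain, had -0.95 and -0.77 in GATA1 5-13 and -0.36 and -0.27 in GATA1 4-14, a mean of -0.59 ± 0.38. BIRC3 (cIAP2), an inhibitor of apoptosis at the TNF receptor, had -0.80 and -0.60, then -0.26 and -0.11, a mean of -0.44 ± 0.36. Like TNFSF10, both were lower in GATA1 5-13 than in GATA1 4-14 on every array.

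TNFAIP3 (A20), which restrains signalling from TNFRSF1A, had 0.15 and 0.41 in GATA1 5-13 and 0.22 and 0.48 in GATA1 4-14 by probe A_24_P157926, a mean of 0.32 ± 0.05. Its other probe, A_24_P166527, had 0.10, 0.11, 0.21 and 0.17 in the same order, with a mean of 0.15. DEDD2, a protein with a death effector domain, had -0.05 and -0.29, then -0.08 and -0.26, with a mean of -0.17. For TNFAIP3 A_24_P157926 and DEDD2 the ratio farther from 0 came with the green label on the knockdown, in both clones. Limma's adjusted p-values for these 4 probes (n = 2 clones) lay between 0.576 for TNFAIP3 and 0.681 for BIRC3.

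**Figure D5:**
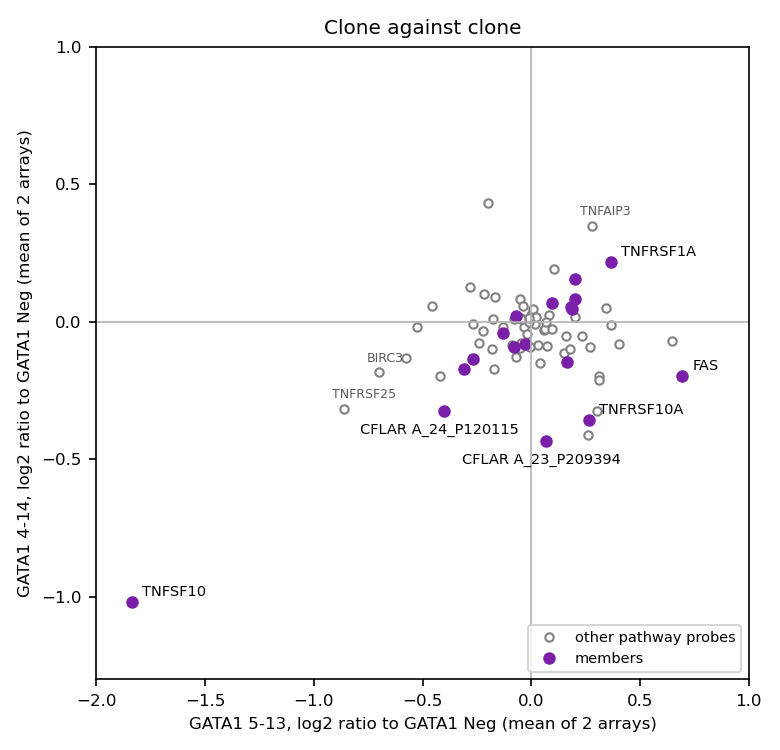
Log2 ratio to GATA1 Neg of GATA1 4-14 (y axis) against that of GATA1 5-13 (x axis), each the mean of 2 arrays, for the 18 member probes (filled) and the 60 probes of other pathway genes (open). TNFSF10 lies alone at the lower left, at -1.84 and -1.02, TNFRSF25 and BIRC3 lie below 0 in both clones, and FAS and TNFRSF10A lie to the lower right.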

How the data were processed

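RNA of 2 GATA1 knockdown clones was compared with GATA1 Neg RNA on 4 two-colour arrays that lay on 1 slide. Per the file headers, the scanner output came from Feature Extraction 9.5.3.1 and places the probes on hg18. The intensity of each spot and its local background were deposited by the authors without correction or normalization. The log10 ratio that the authors deposited for each spot was background-subtracted and dye-normalized by that program, with an error from its error model, and the deposited series-wide values differed from it, once signs were turned, by at most 4.97e-06. The combination of arrays by Rosetta Resolver was not used here.

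With limma 3.58.1 in R 4.3.3, the intensities were corrected by normexp (offset 50) and normalized by loess within each array. The offset makes ratios of dim probes smaller. Control spots and 135 to 152 outlier spots per array were left out, spots of a probe were averaged, signs were set as knockdown over control, and each clone's arrays were averaged into 1 replicate, as no separate RNA extracts are named. A two-sided test of the mean of 2 clones against 0 was run, with each probe's variance drawn toward a prior from all probes. Benjamini-Hochberg adjustment covered 40974 probes. The error-weighted mean weighted each of the 4 arrays' Feature Extraction log ratios by its error, taking for a probe with repeated spots the root mean square of the spots' errors, with a normal p. Calls were made at 0.05. The number of arrays limits the precision.

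The members, the list of 44 pathway genes, the marker genes and the rule for naming probes (every member probe, GATA1, and the 6 largest pathway probes with 1 sign on all arrays, some of which are not reported here) were chosen with earlier results of these data known. The transcripts named for 16 of the 18 probes were found in RefSeq by their identifiers, under the same gene symbols as on the array. The tests were tried on simulated data. For the error-weighted mean the simulated arrays had independent noise and no spread between clones, unlike the real arrays. That trial therefore does not show how the error-weighted mean behaves on these data.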

Additional observations from a re-analysis of the deposited data

Results flagged for a closer look

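For 3 probes the log2 ratios of one clone were above 0 on both arrays and those of the other below 0 on both, and this difference was not tested, since each clone is 1 replicate. GATA1 5-13 exceeded GATA1 4-14 by 0.891 for FAS, by 0.623 for TNFRSF10A and by 0.311 for CASP10 A_24_P3045. The share of all probes divided in this way was not counted. By the clone means alone, 7 of the 18 member probes were below 0 in both clones and 6 above 0 in both. Over all 40974 probes tested these counts were 11694 and 11437, so clone means of opposite sign were common. Those counts include probes not above background and do not require both arrays of a clone to share a sign.

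In 3 of the 18 member probes, 1 array stood apart from the other 3 in the normalized log2 signal of GATA1 Neg, the RNA common to all arrays. Chance gives such a gap in about 1 in 20 probes. Only the member probes were examined for it, so the share over all probes of these arrays is not known. The gap took 0.879 of the range for CFLAR A_24_P120115, where array 2 of GATA1 4-14 had 10.07 and the others 10.10. It took 0.889 of the range for CASP10 A_23_P209408, where array 2 of GATA1 5-13 had 11.91 and the others 11.85 or 11.86. It took 0.867 of the range for CASP10 A_24_P139993, where array 1 of GATA1 5-13 had 11.21 and the others 11.24 or 11.25.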

How the results depend on the processing

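No member probe passed the adjusted threshold with limma on the 2 clones under any normalization, filter or left-out array. Of all probes, 0 or 1 passed under these settings. With the 4 arrays as 4 values 2 passed (TNFSF10 and CFLAR A_24_P120115), beside 1240 of all 40974 probes. That setting counts the 2 arrays of a clone as separate replicates. By the error-weighted mean 3 passed (those and TNFRSF1A A_23_P139722), beside 3415 of all probes. When the errors of repeated spots were divided by the root of their number 4 passed, FAS with them, beside 3531 of all probes. This last alternative was chosen after seeing the data. The 5 probes past the unadjusted threshold became 1 with Feature Extraction's log ratios, and the series-wide values hold the same ratios. They became 3 with dim probes left out, 3 with an intensity trend and 8 with the 4 arrays as 4 values. With the replicate number, which marks the dye orientation, as a replicate block over the 4 arrays, 7 passed the unadjusted threshold. The adjusted threshold was passed by 0 there, beside 269 of all probes. Arrays of the same number in different clones correlated at 0.387 and 0.409 and arrays of different numbers at 0.171 and 0.216, and with 2 pairs the numbers were not taken to pair the samples. With median centring 2 probes were lower and 1 was higher on all 4 arrays, in place of 5 and 5. Shares of all probes at the unadjusted threshold and of 1 sign on all 4 arrays were not counted under the alternatives. The cause of these moves was not tested.

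Leaving out an array or a clone turned the sign of 5 probes, whose log2 ratios then ranged from -0.20 to 0.69 for FAS, from -0.36 to 0.26 for TNFRSF10A, from -0.43 to 0.066 for CFLAR A_23_P209394, from -0.15 to 0.17 for CASP10 A_24_P3045 and from -0.077 to 0.028 for CASP8 A_23_P209389. Over all named probes and alternatives, 364 values kept their direction and, where they had an adjusted p, their side of the threshold. Another 18 came to pass the adjusted threshold and 9 turned sign. With a clone left out there is no adjusted p, so a value was then judged by its sign alone. The series-wide values were counted here beside the Feature Extraction log ratios, although they are the same ratios. The slide could not be used as a block, since all arrays lay on 1 slide. All member signals were above background, so depth did not limit their detection, whereas 7 of 8 probes of the other ligands could not be read.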
